A study of Homo sapiens with 6 samples.

Results

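The endoplasmic reticulum (ER) folding genes described here are HSPA5, HYOU1, HSP90B1, P4HB, PDIA4, PDIA6 and XBP1, which were taken by a fixed list of Ensembl gene IDs. The rule used no measured value, but the list was drawn up with earlier results of these data known. All 7 were found once each among the 62492 features of the deposited count table, and all 7 were among the 11653 features with enough counts to be tested. They were measured by ribosome profiling, in which the stretches of mRNA shielded by ribosomes are sequenced, so that a count reflects both the amount of an mRNA and the density of ribosomes on it. The cells were WPMY-1, a human myofibroblast line that was immortalised from prostate stroma. The control group was 3 libraries with a control short hairpin RNA, labelled TRMT61A wildtype, and the knockdown group was 3 libraries with a hairpin against TRMT61A, labelled TRMT61A knockdown. TRMT61A is the catalytic subunit of the enzyme that places 1-methyladenosine in tRNA, and the study asked how its loss alters translation. No treatment, time or second cell line is named in the labels, and the sources do not say whether separate cultures lie behind the libraries of a group, or how many hairpins or clones were used. Each p-value thus rests on a spread between libraries that may be technical.

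Proteins bound for secretion, the cell surface or the extracellular matrix enter the ER unfolded, where chaperones hold them, thiol oxidoreductases form and rearrange their disulfide bonds, and misfolded products are withdrawn for degradation. When unfolded proteins build up, the sensors IRE1, PERK and ATF6 start the unfolded protein response. IRE1 removes a short intron from the XBP1 mRNA so that it encodes an active transcription factor, and spliced XBP1 and cleaved ATF6 raise transcription of chaperone and oxidoreductase genes. Stromal fibroblasts depend on this machinery because they export large amounts of collagen and fibronectin.

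Sequences through which genes of the unfolded protein response are known to be switched on can lie just before their transcription starts. The matching stretches are shown because such matches are rare among promoters and 5 of the 7 genes hold at least 1. Promoter windows from 250 bases before to 50 bases after each start were taken from RefSeq (GRCh38.p14) by gene symbol, which gave 10 windows for the 7 genes, since some have more than 1 start. The ER stress response element (ERSE, searched on both strands as CCAAT, 9 free bases and CCACG) was present in a window of 4 of the 7 genes, HSPA5, HSP90B1, PDIA6 and XBP1, and in a window of 0.0916% of all 27305 genes with one. ERSE-II (searched on both strands as ATTGG, 1 free base and CCACG) was present in HYOU1 and in 0.0696% of all genes. The unfolded protein response element (UPRE, searched as TGACGTGG on both strands) was present in HYOU1 and in 0.927% of all genes. These elements were themselves defined in the literature on genes of this group, so their presence is background and not a finding of these data. The windows of PDIA4 and P4HB held none of the 3 elements in these exact letters. The shorter CCAAT box, which is contained in ERSE and, read on the other strand, in ERSE-II, was present in all 7 genes and in 39.7% of all genes, or in 8 of the 10 windows and in 34.6% of all 35116 windows. In the stretches below, written 5′ to 3′ along the gene, capitals mark the fixed letters of the elements.
HSPA5, chr9:125241371-125241429, minus strand, ERSE: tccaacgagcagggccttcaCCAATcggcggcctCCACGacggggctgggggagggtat
PDIA6, chr2:10812833-10812891, minus strand, ERSE: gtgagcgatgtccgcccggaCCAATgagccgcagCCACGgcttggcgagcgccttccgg
XBP1, chr22:28800583-28800641, minus strand, ERSE: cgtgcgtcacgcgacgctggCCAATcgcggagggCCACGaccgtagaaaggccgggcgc
HSP90B1, chr12:103930196-103930359, plus strand, ERSE on each strand: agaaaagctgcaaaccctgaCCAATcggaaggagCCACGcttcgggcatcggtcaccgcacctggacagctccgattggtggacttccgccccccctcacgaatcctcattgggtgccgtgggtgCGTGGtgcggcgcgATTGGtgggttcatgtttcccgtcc
HYOU1, chr11:119057254-119057413, minus strand, UPRE overlapping the first of 2 ERSE-II: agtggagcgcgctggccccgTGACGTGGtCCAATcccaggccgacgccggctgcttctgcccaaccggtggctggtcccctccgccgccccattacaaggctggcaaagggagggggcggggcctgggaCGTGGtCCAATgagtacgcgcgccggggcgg
The ERSE of HSPA5 began 66 bases before the start, that of PDIA6 86 bases and that of XBP1 52 bases before it. In HSP90B1 the copies began 194 and 89 bases before the start, the second on the opposite strand. The footprint counts do not show whether any of these elements was bound.

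Total counts ran from 6771455 to 17752247 per library, and the mean knockdown total was 1.98 times the mean control total. Across the 3 control libraries the top 50 features of the library held 71.0%, 62.7% and 61.8% of its counts. Across the 3 knockdown libraries they held 73.2%, 72.2% and 69.9%, and none of the 7 genes was among them. Levels are given as CPM, a count scaled to a common library depth, after TMM scaling, which rests on most features not changing. The TMM factors, in the same order of libraries, were 0.92, 1.21 and 1.21 in control and 0.86, 0.89 and 0.97 in knockdown. Values by library size alone are given beside each gene. The level of TRMT61A itself in each library was not analysed here, because the sources used here pair no symbol with its ID, and markers of the stromal cell type were not analysed for the same reason. The knockdown is therefore taken from the labels. Libraries are identified below as control 1 to 3 and knockdown 1 to 3.

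All 7 genes had a higher mean CPM in knockdown than in control under TMM scaling, by 1.19-fold for P4HB up to 1.71-fold for XBP1, but 0 of the 7 passed the adjusted threshold of 0.05 in edgeR. Over all features tested, 49.7% had a log2 fold change above 0, 1.48% passed as higher in the knockdown and 3.12% passed in either direction. Among the most abundant 20%, to which 6 of the 7 belonged, 4.12% passed as higher. At an unadjusted p under 0.05 in edgeR, 5 of the 7 were higher, against 7.95% of all tested features and 15.6% of the most abundant 20%. The median log2 fold change was 0.57 over the 7 genes and -0.0047 over all tested features. In DESeq2, 4 of the 7 (HSPA5, PDIA4, PDIA6 and HYOU1) passed the adjusted threshold, against 3.34% of all features called higher by that tool, with features lacking an adjusted p counted as not called. No fold is therefore called a rise below.

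**Figure D1:**
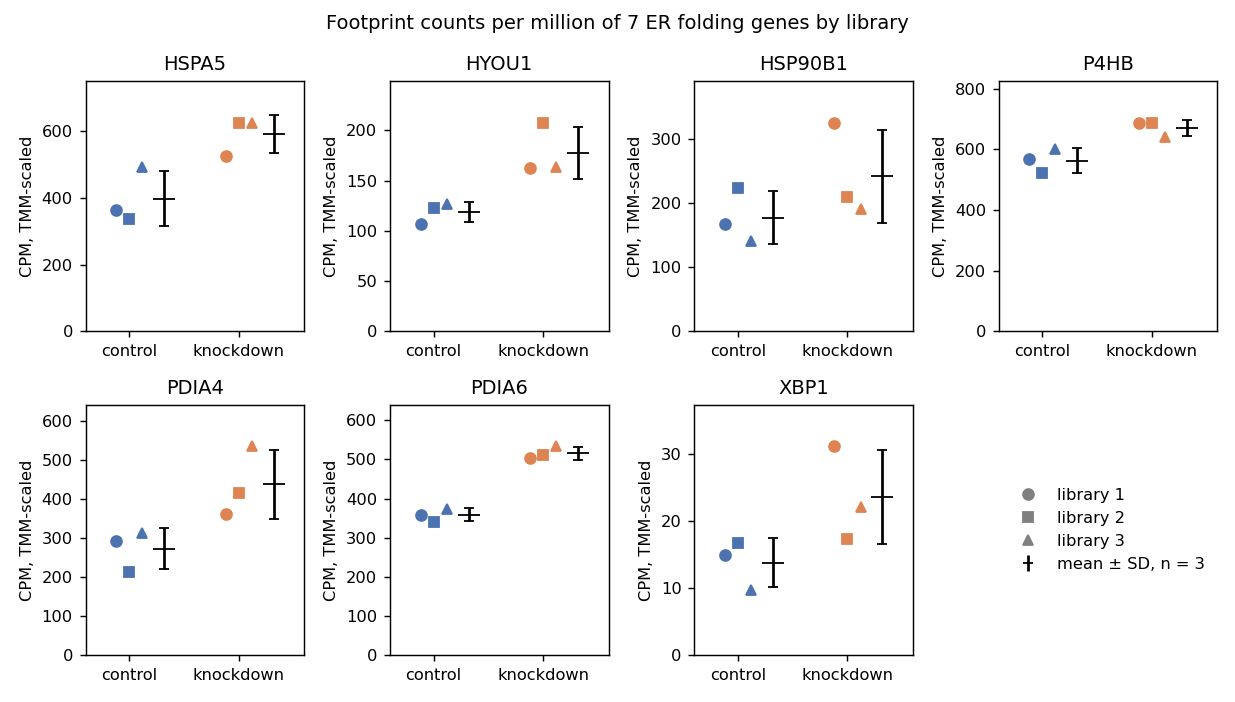
TMM-scaled CPM (vertical axis, linear, from 0) of each gene in each of the 3 control and 3 knockdown libraries, with marker shapes for library numbers and a bar for the mean ± SD. The groups do not overlap for 6 of the 7 genes on this scale, where 12.2% of all tested features are separated with the knockdown higher, and overlap for all 7 by library size alone.

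HSPA5 (BiP, ENSG00000044574.8_5) is the ER member of the HSP70 family, which binds exposed hydrophobic stretches and holds the stress sensors inactive. Its levels were 365, 336 and 491 CPM in control 1 to 3 and 527, 626 and 625 CPM in knockdown 1 to 3. Every knockdown library lay above every control library, although knockdown 1 was only 1.07 times control 3. By library size alone they overlapped, with control 3 at 591 CPM above knockdown 1 and 2 at 451 and 556 CPM, and the log2 fold change was 0.28. The means were 398 ± 82 and 592 ± 57 CPM (SD, n = 3 each). In edgeR the log2 fold change came to 0.57 ± 0.23 (SE; adjusted p = 0.227), and DESeq2 gave an adjusted p of 0.0421.

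HYOU1 (GRP170, ENSG00000149428.19_9) is a large HSP70-related chaperone that exchanges nucleotide on HSPA5. It had 107, 123 and 126 CPM in the control libraries and 162, 208 and 164 CPM in the knockdown libraries. The groups did not overlap, and the lowest knockdown library was 1.28 times the highest control library. By library size alone knockdown 1, at 139 CPM, lay below control 2 and 3, at 148 and 152 CPM, and the log2 fold change was 0.27. In edgeR the log2 fold change came to 0.58 ± 0.22 (SE; adjusted p = 0.188), and DESeq2 gave an adjusted p of 0.0495. HYOU1 and HSPA5 had nearly the same fitted size, 0.58 and 0.57, and PDIA6 was close to both at 0.53. With control 3 left out HYOU1 was at 0.63 and HSPA5 at 0.75, and with control 2 left out at 0.60 and 0.46. Whether the joint work of HYOU1 and HSPA5 bears on these sizes was not tested.

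HSP90B1 (GRP94, ENSG00000166598.15_6) is the ER member of the HSP90 family and helps fold integrins and insulin-like growth factors. It had 168, 223 and 141 CPM in the control libraries and 325, 209 and 190 CPM in the knockdown libraries. It was the 1 gene of the 7 whose groups overlapped, since control 2 lay above knockdown 2 and 3. Its log2 fold change of 0.45 ± 0.27 (SE, adjusted p = 0.470 in edgeR) rested largely on knockdown 1, and it was 0.13 by library size alone. Without that library it was 0.17, with an adjusted p of 0.844 in edgeR, and without control 2 it was 0.64, with an adjusted p of 0.435.

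P4HB (protein disulfide isomerase, ENSG00000185624.15_5) forms and rearranges disulfide bonds and is also the beta subunit of the prolyl 4-hydroxylase that modifies collagen. It had 567, 521 and 602 CPM in the control libraries and 688, 686 and 640 CPM in the knockdown libraries. The groups did not overlap under TMM, but the log2 fold change, 0.25 ± 0.21 (SE, adjusted p = 0.635 in edgeR), was the smallest of the 7. By library size alone the groups overlapped and the sign turned, to -0.042 (adjusted p = 0.953 in edgeR).

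PDIA4 (ERp72, ENSG00000155660.11_8) is an oxidoreductase of the same family with an additional thioredoxin-like domain. It had 293, 212 and 312 CPM in the control libraries and 362, 416 and 535 CPM in the knockdown libraries. The groups did not overlap, and knockdown 3 stood well above the other two. By library size alone control 3, at 375 CPM, lay above knockdown 1 and 2, at 310 and 370 CPM, and the log2 fold change was 0.41. Control libraries averaged 273 ± 53 CPM and knockdown libraries 438 ± 88 CPM (SD, n = 3 each). The fitted log2 fold change of 0.68 ± 0.24 (SE) had the lowest adjusted p of the 7 in edgeR, 0.164, and one of 0.0269 in DESeq2.

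PDIA6 (P5, ENSG00000143870.13_5) is an oxidoreductase that binds HSPA5 and helps to switch off the stress sensors. It had 359, 341 and 374 CPM in the control libraries and 503, 510 and 533 CPM in the knockdown libraries. Under TMM its groups had the widest gap of the 7, since the lowest knockdown library was 1.34 times the highest control library. By library size alone they overlapped, with knockdown 1 at 431 CPM and control 3 at 450.1 CPM, and the log2 fold change was 0.23. The means were 358 ± 16 and 516 ± 16 CPM (SD, n = 3 each), so the coefficient of variation was 4.61% in control and 3.10% in knockdown, where counting error alone gives 1.85% and 1.22%. In edgeR the log2 fold change came to 0.53 ± 0.20 (SE; adjusted p = 0.208), and DESeq2 gave an adjusted p of 0.0240. The SE of edgeR draws partly on an estimate of spread shared across features, so it does not rest on the spread of PDIA6 alone.

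XBP1 (ENSG00000100219.16_8), the transcription factor of the IRE1 branch, was covered by the fewest counts. Control 1 to 3 held 110, 136 and 85 counts and knockdown 1 to 3 held 473, 204 and 273, or 14.9, 16.7 and 9.64 CPM against 31.1, 17.3 and 22.1 CPM. The groups did not overlap by a narrow margin, with knockdown 2 at 1.04 times control 2. By library size alone they overlapped, with knockdown 2 at 15.4 CPM and control 2 at 20.1 CPM, and the log2 fold change was 0.48. Its log2 fold change was the largest of the 7, 0.78 ± 0.35 (SE), and it also had the largest SE (adjusted p = 0.298 in edgeR and 0.245 in DESeq2). Without knockdown 1 it was 0.52 and without knockdown 2 it was 0.95, with adjusted p of 0.586 and 0.264 in edgeR. Counts per gene do not separate spliced from unspliced XBP1 mRNA, so the activity of IRE1 was not measured.

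**Figure D2:**
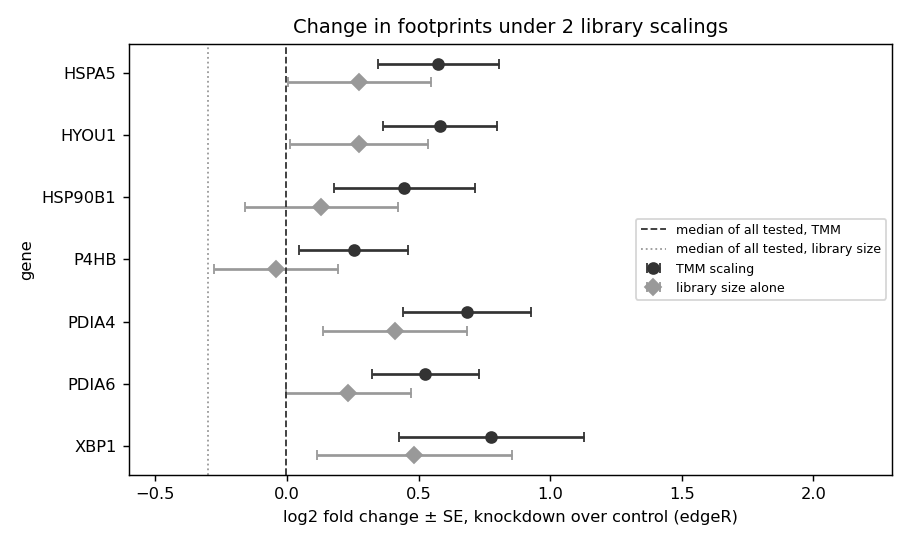
The log2 fold change of each gene, knockdown over control, from edgeR with TMM scaling (circles) and with library size alone (diamonds), with bars of 1 SE and vertical lines at the median of all tested features under each scaling. All 7 values lie above the line of their own scaling, and P4HB lies below 0 with library size alone. A change of scaling moves the genes and the line together by nearly the same amount.

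The size of these differences depended on how libraries were scaled. With library size alone the log2 fold changes of the 7 genes ran from -0.042 for P4HB to 0.48 for XBP1, with adjusted p from 0.506 to 0.953 in edgeR. The median over all tested features then moved to -0.30. Relative to the median of all tested features, the median of the 7 genes lay 0.58 higher on the log2 scale under TMM and also 0.58 higher with library size alone. A change of scaling shifts all features by nearly the same amount. These offsets therefore had to be nearly equal, and the second adds no separate support. Under TMM the groups did not overlap for 6 of the 7 genes, where 12.2% of all tested features and 18.8% of the most abundant 20% were separated with the knockdown higher. With library size alone the groups overlapped for all 7 genes, where 6.09% of all tested features were separated with the knockdown higher.

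**Figure D3:**
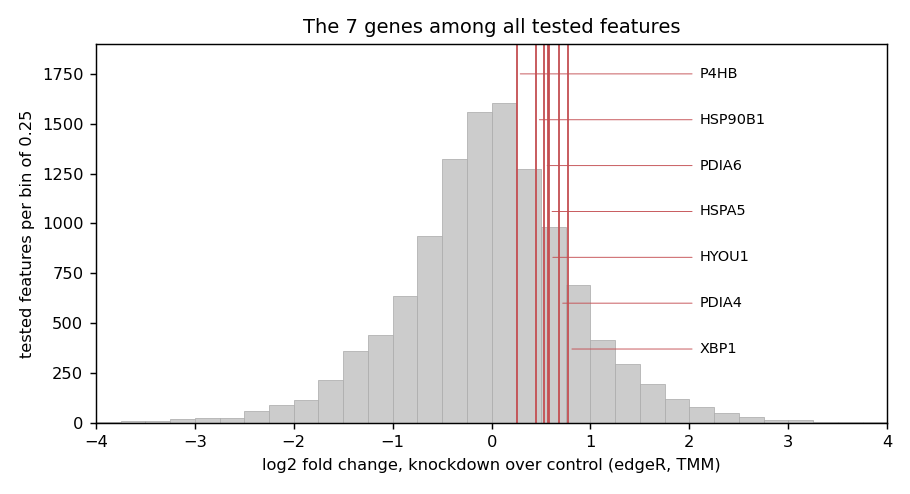
Histogram of log2 fold changes over the tested features (bins of 0.25 on the log2 scale, edgeR with TMM; the axis is limited to the range from -4 to 4), with a vertical line for each of the 7 genes. The 7 genes sit to the right of the peak, on its shoulder and well inside the spread of all features, which are not matched to them for abundance.

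Within the distribution of all tested features, taken at every abundance, the 7 genes occupied the upper shoulder and not the tail. The log2 fold change of P4HB was above that of 64.3% of tested features, that of HSP90B1 above 72.9%, and those of PDIA6, HSPA5, HYOU1 and PDIA4 above 76.0%, 77.9%, 78.2% and 81.5%. XBP1 was above 84.2%. Thus 15.8% or more of all tested features had a larger log2 fold change than each of the 7. Since 6 of the 7 genes were among the most abundant 20%, these ranks are not matched for abundance. Ranks within that 20% were not computed, and they may differ.

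Summed over the 7 genes, the counts were 13818, 14461 and 18138 in control 1 to 3 and 39506, 31520 and 33436 in knockdown 1 to 3. As a share of all counts in the library this was 0.173%, 0.214% and 0.247% in control and 0.223%, 0.237% and 0.263% in knockdown. These ranges overlap, and their means, 0.211% ± 0.038 and 0.241% ± 0.021 (SD, n = 3 each), differ 1.14-fold. When the 50 most abundant features of each library were set aside, the share became 0.595%, 0.572% and 0.647% in control and 0.830%, 0.852% and 0.874% in knockdown. These ranges do not overlap, and the means differ 1.41-fold, close to the 1.40-fold difference in summed TMM-scaled CPM. Wilson 95% intervals for the shares were narrow, for example 0.170% to 0.175% in control 1, and cover counting error only. The separation of the groups thus depended on whether those few very abundant features were counted in the total. Their part in the difference was not tested.

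Ratios between genes of the same library do not depend on the scaling. Relative to HSPA5, none of the other 6 genes had groups that did not overlap, and the exact permutation tests over libraries (two-sided, smallest possible p = 0.1) gave p from 0.2 to 1, or 0.96 to 1 after Benjamini-Hochberg adjustment over the 6 ratios. HYOU1 kept the steadiest mean ratio to HSPA5, with a log2 difference of -0.01 between groups. P4HB moved furthest, from 1.55, 1.55 and 1.23 times the HSPA5 count in control to 1.31, 1.10 and 1.02 times in knockdown, a log2 difference of -0.33 (exact permutation p = 0.2, n = 3 each). With 3 libraries per group this exact test cannot reach 0.05 for a single ratio.

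P4HB was also the gene whose part in the summed counts differed most clearly. It made up 30.2%, 29.4% and 29.3% of the counts of the 7 genes in control and 26.5%, 25.7% and 23.6% in knockdown, with no overlap. Set against the sum of the other 6 genes, it was lower in the knockdown by a log2 difference of -0.32, with an exact permutation p of 0.1, the smallest this test allows, and 0.6 after adjustment over the 6 genes so tested. PDIA6 held 18.2% to 19.2% of the counts in control and 19.1% to 19.7% in knockdown. These shares depend on the length of each coding sequence, so they are compared between libraries and not between genes, and no order of the genes by level is given because no coding lengths were used here.

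**Figure D4:**
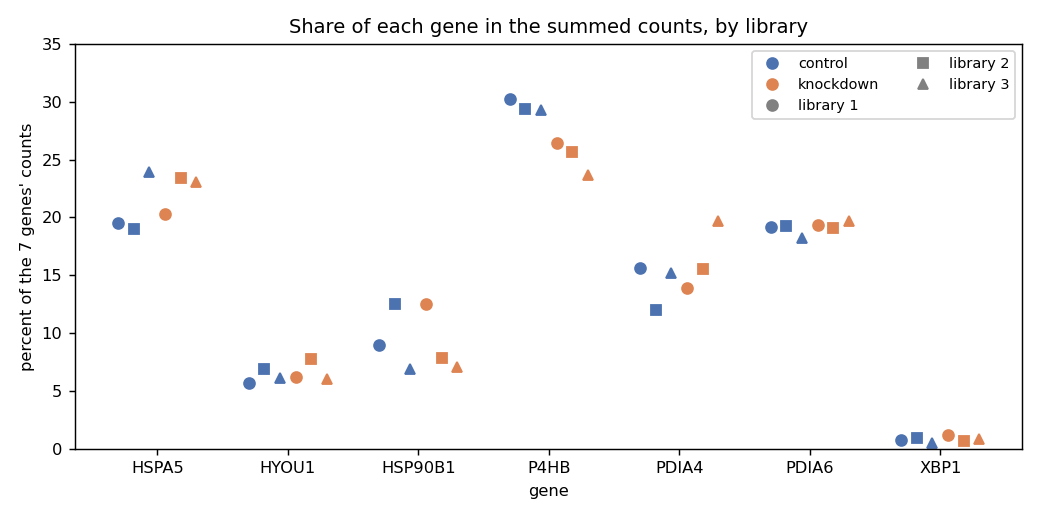
Percent of the summed counts of the 7 genes held by each gene (vertical axis, from 0), with 1 point per library, colour for the group and shape for the library number. P4HB is lower in all 3 knockdown libraries than in all 3 control libraries, and the groups of HSPA5, HYOU1, HSP90B1, PDIA4, PDIA6 and XBP1 overlap.

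Within the groups, under TMM scaling, the genes fell into more than 1 order. HSP90B1 and XBP1 had their highest control level in control 2, their lowest in control 3 and their highest knockdown level in knockdown 1. HSPA5, PDIA4 and PDIA6 showed the reverse, with their highest control level in control 3 and their lowest in control 2, and their lowest knockdown level in knockdown 1. P4HB shared their order in control and had its lowest knockdown level in knockdown 3. HYOU1 shared with HSPA5, PDIA4 and PDIA6 the highest control level in control 3 and the lowest knockdown level in knockdown 1. That lowest level, 162 CPM, was close to the 164 CPM of knockdown 3. It differed from them in having its lowest control level in control 1, and its highest knockdown level was in knockdown 2, as for HSPA5. These orders depended in part on the scaling. By library size alone control 1 was also the lowest control library for HSPA5, PDIA6, P4HB and HSP90B1, and P4HB was lowest in knockdown 1. The coefficient of variation within groups reached 30.3% for HSP90B1 and 29.8% for XBP1 in knockdown, where counting error alone gives 1.75% and 5.62%.

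The profile of the summed genes over the 6 libraries, as deviations of log2 CPM from their own mean, was compared with every other tested feature with a mean of at least 10 CPM. PDIA6 lay closest to that profile among the 7 genes, with a root mean square distance of 0.035 on the log2 scale, and XBP1 lay farthest, at 0.409. Of the other features compared, 37.3% lay closer than XBP1, 27.7% closer than HSP90B1 and 5.27% closer than PDIA4. The share was 1.27% for HYOU1, 0.966% for HSPA5, 0.763% for P4HB and 0% for PDIA6. Since each of the 7 genes is part of the sum, these distances are a description. Of the 5901 other features, the closest were ENSG00000095906.17_6, at a distance of 0.070, and ENSG00000008838.20_7, at 0.077. Neither passed the test between groups in edgeR, with log2 fold changes of 0.42 (adjusted p = 0.563) and 0.35 (adjusted p = 0.514), and no symbols are paired with these IDs here. Both were chosen for closeness to a profile that includes the difference between groups, so positive fold changes were fixed by the choice.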

How the data were processed

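The table the authors deposited gives unnormalised read counts for each Ensembl gene ID and library. Its reads went through fastp and Bowtie 1.3.1 with the hg38 build, per the submitters' processing notes. For the counting tool, annotation, strand setting and read filters, the answer is not given in the sources used here. The gene IDs end in a suffix used for annotation lifted to an earlier human build, while the notes name hg38. This difference was not resolved, and no coordinates of the count features were used. The control columns carry the name of a vector and were matched by assay and replicate number, since the labels hold only 1 other group. The table's 6 further columns, named for RNA, belong to no sample described here and were not used, so mRNA and translation were not separated. Symbols of the 7 genes came with their IDs. The gene table held 0 Ensembl IDs, so other pathway genes, the markers and TRMT61A were not analysed here. The genes, lists and tests were chosen with earlier results of these data known. The text names all 7 genes and the 2 features closest to their summed profile.

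Counts were tested with edgeR 4.0.16 (filterByExpr, TMM, quasi-likelihood F-test, Benjamini-Hochberg adjustment over all tested features, threshold 0.05) in R 4.3.3, and the fit was tested on simulated data. The SE is the log2 fold change divided by the square root of F. Ratios used a prior count of 0.5. Alternatives were DESeq2 1.42.0, limma 3.58.1 with voom, other scalings and filters, a replicate block and leaving out each library. No molecular identifiers are described, so PCR copies may be counted more than once.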

Additional observations from a re-analysis of the deposited data

How the results depend on the processing

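In edgeR 364 features were called, 173 higher and 191 lower. The count was 799 in DESeq2, 735 without the filter on low counts, 602 with at least 10 CPM in 3 libraries, 208 with the replicate block and 47 to 171 with 1 library left out. Scaling by library size alone gave 63 higher and 334 lower, so the share called higher was 15.9% in place of 47.5%. Of the 7 genes, 4 passed in DESeq2, and 0 passed in edgeR or under any other alternative run, the replicate block included. Across the 14 alternatives all 7 kept a log2 fold change above 0 except P4HB with library size alone (-0.042). The log2 ratio of the summed genes, 0.49 with TMM, was 0.20 with library size alone. Of the 6 ratios to HSPA5, 0 had groups that did not overlap, which became 1 (P4HB) against the sum of the other genes and 0 to 2 with 1 library left out. Against that sum the log2 differences of PDIA6 and HYOU1 changed sign, to 0.048 and 0.096. With 1 library left out, the log2 differences relative to HSPA5 ran from -0.48 to 0.13 for HSP90B1, -0.13 to 0.12 for HYOU1, -0.020 to 0.21 for PDIA4, -0.19 to 0.012 for PDIA6 and -0.22 to 0.44 for XBP1, so none of these 5 has a settled sign. The cause of these changes was not tested. Same-numbered libraries had r from -0.02 to 0.05 across features, within the range of differently numbered ones, from -0.08 to 0.09. Deviations were centred within each group of 3 and covered features of every abundance, so this check is weak and cannot exclude pairing. The numbers were not taken as pairs in the main fit, and the fit with the replicate block is given above.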
